A study of Rattus norvegicus with 6 samples.

Results

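The miRNAs rno-miR-124-3p, rno-miR-9a-5p, rno-miR-9a-3p, rno-miR-128-3p, rno-miR-129-5p and rno-miR-138-5p, known for high levels in brain, were followed in small RNA libraries from rat plasma exosomes. They were chosen by name from the 763 mature miRNAs of the count table, by a rule that uses no measured value, but with earlier results of these data known. All 6 were in the table, and 5 passed the filter on low counts that left 404 miRNAs for testing. The libraries came from young adult male Sprague-Dawley rats. Control-EXO denotes plasma exosomes of rats without remote ischemic pre-conditioning (RIPC), and RIPC-EXO those from RIPC rats, in which bands around both hind limbs gave 4 cycles of 5 min of ischemia and 5 min of reperfusion under anesthesia and blood was taken 48 h later, in the late phase. The control rats were anesthetized and bled at the same time. No genetic change or other drug is described for either group. Whether the control rats were also anesthetized at the time of the limb procedure is not given in the sources used here. Each group had 3 libraries. The sources used here do not say whether each library came from 1 rat, so the p-values measure the spread between these libraries, which may in part be technical. The material was the pellet of an ultracentrifugation of plasma, which can hold vesicles from many tissues, so fewer vesicles of brain origin and fewer copies per vesicle cannot be told apart.

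A miRNA represses transcripts that pair with its seed, bases 2 to 8 of the mature strand, and each hairpin precursor can give a strand from its 5′ arm (5p) and another from its 3′ arm (3p). miR-124-3p is the typical neuronal miRNA and represses transcripts of non-neuronal cells. The arms of miR-9a act together in neural progenitors on the REST repressor complex, miR-128-3p restrains neuronal excitability, miR-129-5p takes part in synaptic downscaling, and miR-138-5p limits the growth of dendritic spines. None of these miRNAs is strictly confined to brain, and miR-128-3p is also made in blood cells and muscle.

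The mature sequences are shown to tell the members apart by seed, which stands in capitals (RefSeq, assembly GRCr8, with 5 of the 6 names matched).

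rno-miR-9a-5p: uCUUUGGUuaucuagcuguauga

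rno-miR-9a-3p: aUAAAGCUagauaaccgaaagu

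rno-miR-128-3p: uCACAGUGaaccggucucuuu

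rno-miR-129-5p: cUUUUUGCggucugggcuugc

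rno-miR-138-5p: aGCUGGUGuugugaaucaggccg

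These 5 seeds all differed, and no other miRNA of the table with a RefSeq sequence shared any of them. The 7 bases of the miR-128-3p seed also occur in miR-27a-3p and miR-27b-3p, shifted by 1 base (names chosen after the sequences were seen). Every member with a sequence is encoded more than once in the rat genome. The 5p strand of miR-9a lies in Mir9-1 (chr2:175974986-175975008, plus strand, within the lncRNA gene LOC100911992), in Mir9-2 (chr2:15933307-15933329, plus strand, within Mir9-2hg) and in Mir9-3 (chr1:142849415-142849437, plus strand, within the lncRNA gene Mir9-3hg). miR-128-3p lies in Mir128-1 (chr13:42251933-42251953, plus strand, within R3hdm1) and Mir128-2 (chr8:120963807-120963827, minus strand, within Arpp21 and the lncRNA gene LOC120094269). miR-129-5p lies in Mir129-1 (chr4:58589716-58589736, plus strand, within the lncRNA gene LOC120102250) and Mir129-2 (chr3:100657448-100657468, minus strand, within no other annotated gene). miR-138-5p lies in Mir138-1 (chr8:131178456-131178478, plus strand, within the lncRNA genes LOC103690480 and LOC102550701) and Mir138-2 (chr19:10680184-10680206, minus strand, within the span of Slc12a3). These positions are on GRCr8, and whether they fall in exons or introns was not determined here.

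The libraries held between 5484209 and 7531737 counts, so that 3 counts, the upper limit that a count of 0 allows, corresponded to between 0.369 and 0.672 CPM, with CPM standing for counts scaled by library size and TMM factors. Both this limit and the binomial intervals below describe counting error alone, because amplified reads that carry no molecular identifier are not independent molecules. One library stood apart from its label: over the 404 tested miRNAs, Control-EXO replicate 3 differed from Control-EXO replicates 1 and 2 by a root mean square of 1.71 and 1.49 on the log2 CPM scale, but from the RIPC-EXO libraries by 0.678 to 0.996. The fold changes of the tested members, the arm ratios and the counts of list members called are therefore also given without it. Because it was singled out for its likeness to RIPC-EXO in these same data, leaving it out favours differences between the groups. The p-values of that fit are conditional on this choice. Among markers of other sources, the summed CPM of the 4 red cell miRNAs was 69280 to 198092 in Control-EXO and 44540 to 74966 in RIPC-EXO. That of the 3 liver miRNAs was 79873 to 109258 and 76445 to 81310, and that of the 4 leukocyte and platelet miRNAs 3553 to 21387 and 11449 to 26861. The endothelial pair had 4723 to 16773 and 20587 to 30334, the 7 striated muscle miRNAs 2151 to 9821 and 1805 to 5972, and the 4 pancreas miRNAs 2341 to 5357 and 1675 to 3046. No marker of these lists was at 0 throughout. A fold change above 2 at an unadjusted p below 0.05 (edgeR's quasi-likelihood test), which 9.41% of the 404 tested miRNAs met, was found for 2 of the red cell miRNAs (miR-144-3p and miR-144-5p), 1 of the endothelial pair (miR-126a-3p) and 1 of the 2 tested pancreas miRNAs (miR-217-5p), all higher in RIPC-EXO and named after their values were seen, and for 0 of the liver, leukocyte and platelet or muscle miRNAs. miR-486, which made up most of the red cell sum, had a log2 fold change of -1.07 and the pancreas marker miR-375-3p one of -0.71, and neither met the criterion. Without Control-EXO replicate 3, where 43.1% of 422 tested miRNAs met the criterion, it was met by 4 of 7 muscle, 1 of 3 liver, 1 of 4 leukocyte and platelet, 2 of 2 endothelial and 3 of 4 pancreas miRNAs, all higher, and by 3 of 4 red cell miRNAs, 2 higher and 1 lower. Over all 15 other settings tried, the number that met it ran from 0 to these highest counts in each list, and up to 2 muscle miRNAs were lower (without RIPC-EXO replicate 1). The part of these sources in the results below was not tested.

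miR-128-3p was the only abundant member. It had 171025, 91752 and 322933 counts in Control-EXO replicates 1, 2 and 3 and 98864, 197656 and 127046 counts in RIPC-EXO replicates 1, 2 and 3, and ranked 12 of 404 by mean CPM. It made up between 98.3% and 99.7% of the members' counts in each library. All 6 members together held from 1.33% of a library (Control-EXO replicate 2, Wilson 95% interval 1.32% to 1.34%) to 4.30% (Control-EXO replicate 3, 4.29% to 4.32%). The highest and the lowest share thus both belonged to the control group. Without miR-128-3p, the summed level of the other 5 was 324, 199.6 and 149 CPM in Control-EXO and 167, 178 and 195 CPM in RIPC-EXO.

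**Figure D1:**
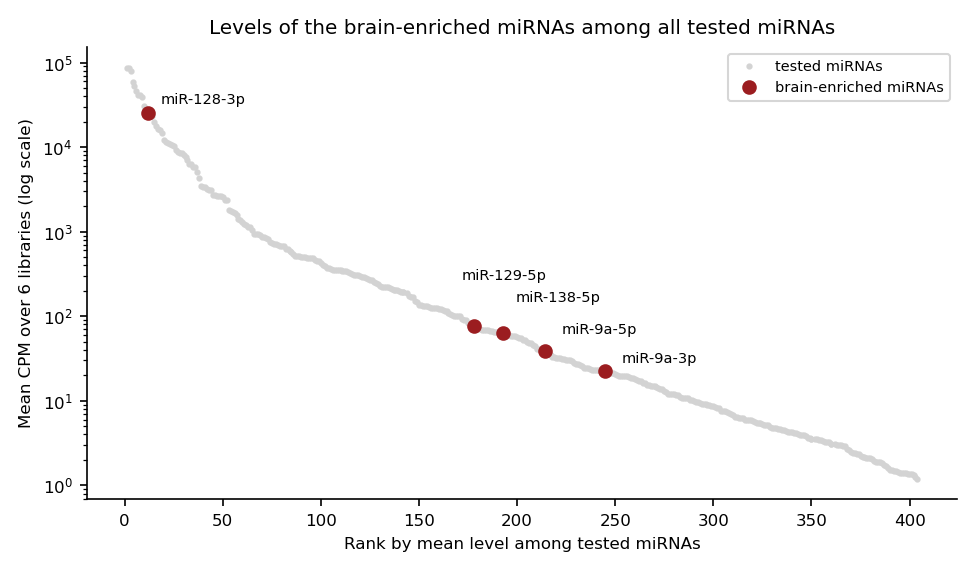
Mean CPM over the 6 libraries (vertical, log scale) against rank by that mean (horizontal) for the 404 tested miRNAs in grey and the 5 tested brain-enriched miRNAs in red. miR-128-3p stands at rank 12, the others at ranks 178, 193, 214 and 245, and miR-124-3p was not tested and is not drawn.

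The order of the mean levels after miR-128-3p was miR-129-5p, miR-138-5p, miR-9a-5p, miR-9a-3p and miR-124-3p, with ranks of 178, 193, 214 and 245 for the 4 that were tested. Neighbours in this order were compared within libraries by an exact two-sided sign-flip permutation test over the 6 libraries, which can give no p under 0.031. miR-128-3p exceeded miR-129-5p in 6 of 6 libraries, by 8.41 ± 1.19 on the log2 scale (SD), and miR-9a-5p exceeded miR-9a-3p in 6 of 6, by 1.01 ± 0.74. miR-9a-3p exceeded miR-124-3p in 6 of 6, by 5.18 ± 1.16 with a prior count of 2, a size that depends on the prior count because miR-124-3p had counts of 0. For these 3 pairs p was 0.031, and the adjusted p over the 5 pairs was 0.052 (exact permutation test). miR-129-5p and miR-138-5p did not differ beyond their spread (0.12 ± 0.43, higher in 3 of 6 libraries, exact permutation p = 0.47), nor did miR-138-5p and miR-9a-5p (0.68 ± 1.02, higher in 4 of 6, exact permutation p = 0.22). Differences between sequences in ligation and amplification were not measured.

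The counts of some members moved in fixed steps. All 6 counts of miR-9a-5p, of miR-9a-3p and of miR-124-3p were multiples of 3, and all 6 of miR-129-5p were multiples of 2, whereas miR-128-3p and miR-138-5p had odd and even counts. RefSeq lists 3 hairpins for miR-9a and 2 for miR-129-5p, but also 2 each for miR-128-3p and miR-138-5p. How the authors counted a read that matches several places is not given in the sources used here. With every miRNA's counts divided by their greatest common divisor, a choice made after seeing the data, miR-138-5p was above miR-129-5p in 6 of 6 libraries by 0.87 on the log2 scale (-0.87 for miR-129-5p over miR-138-5p), the reverse of the order above. In the same units miR-138-5p exceeded miR-9a-5p by 2.25. For both of these differences the adjusted p was 0.031 (exact sign-flip permutation test over 6 libraries). The levels of miR-9a, miR-129-5p and miR-124-3p relative to the others therefore hold only to within these factors, while the ratio of 1 miRNA's counts between libraries is the same in either unit.

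The comparison of RIPC-EXO with Control-EXO asks whether late-phase RIPC changes the miRNA cargo of plasma exosomes. For the brain-enriched miRNAs no difference passed the test. Of the 5 tested members, 0 had an adjusted p under 0.05 in edgeR's quasi-likelihood test (0.0% of the 404 tested), and 0 met the criterion of a fold change above 2 at an unadjusted p below 0.05 (9.41% of the 404). Over all tested miRNAs that criterion was met by 8 that were higher and 30 that were lower in RIPC-EXO, or by 18 and 15 with library size as the only scaling. An unadjusted p under 0.05 was found for 38 miRNAs with edgeR, 50 with DESeq2 and 50 with limma-voom, and none of the 3 tools gave an adjusted p under 0.05 for any miRNA. No tested member had groups without overlap in CPM, against 12.9% of the 404. The median log2 fold change was -0.35 for the 5 members and -0.05 for all 404. With library size as the only scaling these medians were -0.14 and 0.10, and without Control-EXO replicate 1 the members' median was 0.063.

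**Figure D2:**
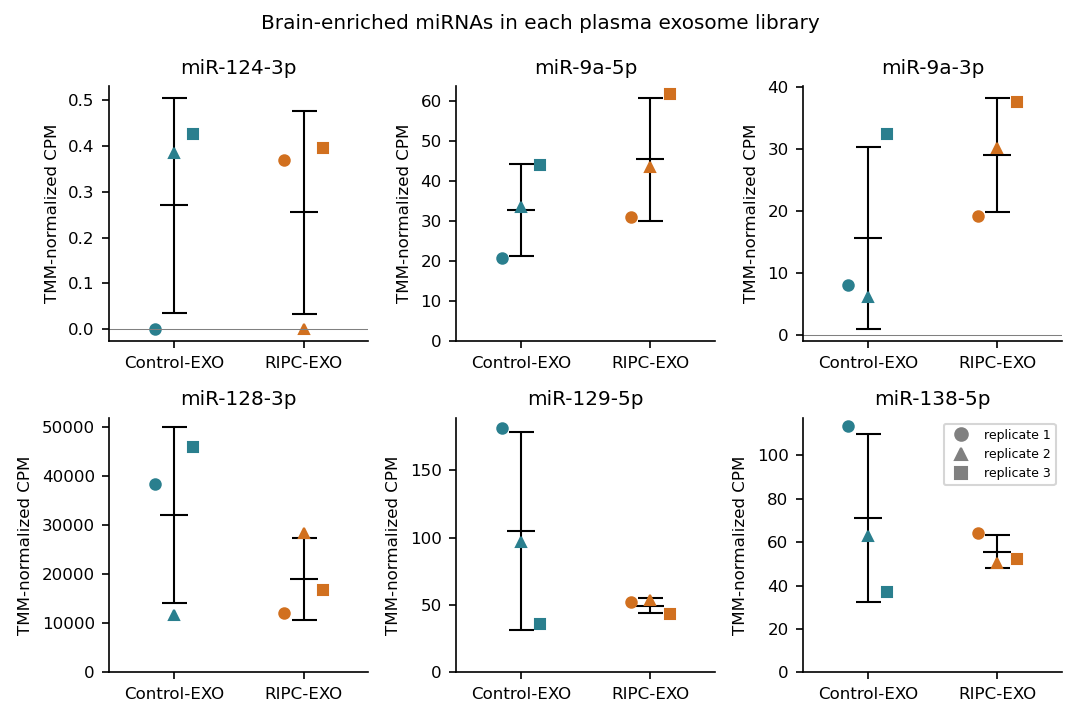
TMM-normalized CPM (vertical, linear scale, a separate range for each panel) of the 6 miRNAs in the 3 Control-EXO and 3 RIPC-EXO libraries, with a symbol for each replicate and the mean and SD in black. In each panel the groups overlap. Control-EXO replicate 3, the square, lies nearer to the RIPC-EXO mean than replicates 1 and 2 for miR-9a-5p, miR-9a-3p and miR-129-5p.

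miR-124-3p, the most strictly neuronal member, was at the limit of detection. Its counts were 0, 3 and 3 in Control-EXO replicates 1, 2 and 3 and 3, 0 and 3 in RIPC-EXO replicates 1, 2 and 3. It was thus seen in 2 of 3 libraries of each group, each time at 3 counts, the smallest step of this miRNA. If each step stands for 1 read, the upper limit that a count of 0 allows is 3 such steps rather than 3 counts. No fold change is given for it, and a difference between groups was not detectable at this depth.

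miR-9a-5p was at 20.8, 33.4 and 44.0 CPM in Control-EXO and 31.0, 43.5 and 61.7 CPM in RIPC-EXO. The RIPC-EXO mean was higher, at 45.4 ± 15.4 against 32.7 ± 11.6 CPM (SD, n = 3 each), but the lowest RIPC-EXO library was below 2 of the 3 controls. The log2 fold change was 0.47 (with a standard error, SE, of 0.47, a 95% interval -0.59 to 1.54, adjusted p = 0.62 by edgeR's quasi-likelihood test, Benjamini-Hochberg adjusted). The interval spans fold changes from 0.662 to 2.899. The log2 fold change was 0.75 without Control-EXO replicate 3, 0.19 without Control-EXO replicate 1 and 0.12 without RIPC-EXO replicate 3.

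miR-9a-3p, the strand from the opposite arm, was at 8.07, 6.15 and 32.4 CPM in Control-EXO and 19.2, 30.2 and 37.6 CPM in RIPC-EXO. Control-EXO replicates 1 and 2 were below every RIPC-EXO library, and replicate 3 was within the RIPC-EXO range. The means were 15.5 ± 14.7 and 29.0 ± 9.25 CPM (SD, n = 3 each), and the log2 fold change was 0.89 (SE 0.67, 95% interval -0.60 to 2.39, adjusted p = 0.51 by that edgeR test). Without Control-EXO replicate 3 the log2 fold change was 2.04 (95% interval 0.97 to 3.12, adjusted p = 0.010 by that edgeR test).

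miR-128-3p was at 38334, 11747 and 45934 CPM in Control-EXO and 12174, 28379.7 and 16761 CPM in RIPC-EXO. The lowest library was a control, and the other controls were the highest of all. The means were 32005 ± 17951 and 19105 ± 8353 CPM (SD, n = 3 each), and the log2 fold change was -0.74 (SE 0.56, 95% interval -2.01 to 0.52, adjusted p = 0.51 in edgeR's quasi-likelihood test). Counting error was 0.226% and 0.266% of the mean in the groups, and the spread between libraries was 56.1% and 43.7%. It met the criterion of fold change and unadjusted p only without Control-EXO replicate 2, the low control, where 4.29% of all tested miRNAs met it and its log2 fold change was -1.12 (unadjusted p = 0.047, adjusted p = 0.72 by that edgeR test). It was -1.10 without RIPC-EXO replicate 2, -0.41 without RIPC-EXO replicate 1 and -0.38 without Control-EXO replicate 3, so its size rested on single libraries.

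miR-129-5p was at 182, 96.8 and 35.6 CPM in Control-EXO and 52.0, 53.7 and 43.0 CPM in RIPC-EXO. Control-EXO replicates 1 and 2 were above every RIPC-EXO library, and replicate 3 was below every one. The means were 105 ± 73.3 and 49.6 ± 5.74 CPM (SD, n = 3 each). The log2 fold change of -1.08 had the smallest unadjusted p of the members, 0.094 (SE 0.58, 95% interval -2.37 to 0.22, adjusted p = 0.48 in edgeR's quasi-likelihood test). Without Control-EXO replicate 3 it was -1.48 (95% interval -2.39 to -0.57, adjusted p = 0.019 by that edgeR test), and without Control-EXO replicate 1 it was -0.54.

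miR-138-5p was at 113, 62.9 and 37.1 CPM in Control-EXO and 64.3, 50.4 and 52.1 CPM in RIPC-EXO. The RIPC-EXO libraries all lay between the highest and the lowest control. The means were 71.1 ± 38.8 and 55.6 ± 7.57 CPM (SD, n = 3 each), and the log2 fold change was -0.35 (SE 0.49, 95% interval -1.46 to 0.75, adjusted p = 0.74 in edgeR's quasi-likelihood test). Its direction was not stable, with a log2 fold change of 0.063 without Control-EXO replicate 1 and of -0.65 without Control-EXO replicate 3.

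Without Control-EXO replicate 3, then, 2 of the 5 tested members, miR-9a-3p and miR-129-5p, had an adjusted p under 0.05 (edgeR's quasi-likelihood test) and moved in opposite directions. In that fit 31.3% of the 422 miRNAs tested had such an adjusted p, 132 in all. Its p-values are conditional on leaving out the control library most like RIPC-EXO. The other 3 kept adjusted p-values between 0.21 and 0.54. In the same fit, 2 muscle, 1 liver, 1 leukocyte and platelet, 2 endothelial and 2 pancreas miRNAs were higher at an adjusted p under 0.05, and 1 red cell miRNA was higher and 1 lower. The part of these sources in the members' values was not tested.

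**Figure D3:**
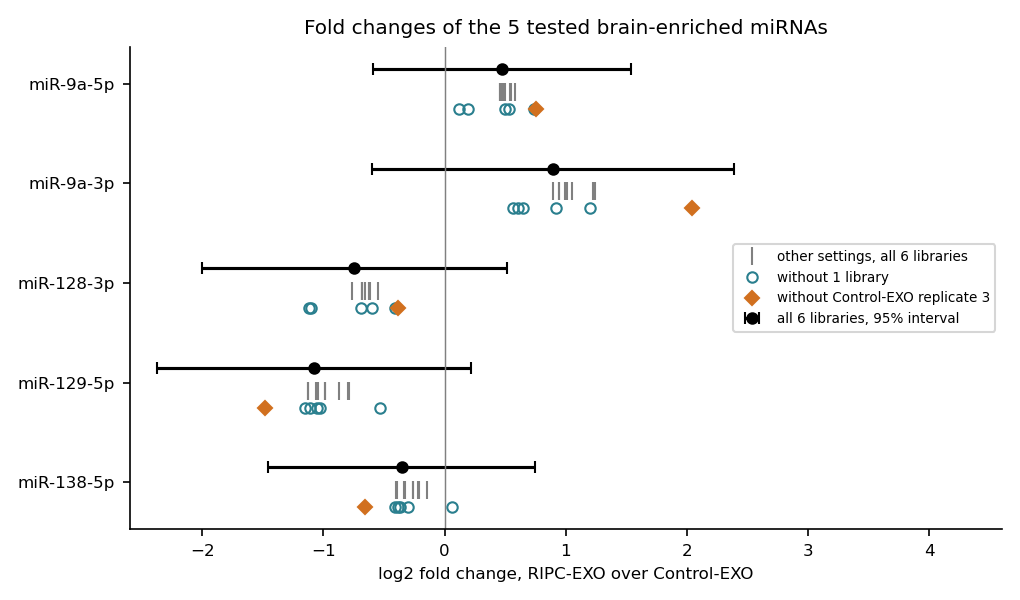
The log2 fold change of RIPC-EXO over Control-EXO (horizontal) for the 5 tested brain-enriched miRNAs, with all 6 libraries and its 95% interval in black, the 9 other settings with all 6 libraries as grey ticks, and the fits without 1 library as circles or, without Control-EXO replicate 3, as diamonds. Each black interval includes 0, and the diamonds of miR-9a-3p (2.04) and miR-129-5p (-1.48) lie farthest out.

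The spread among libraries of a group was unequal. The highest control was 5.28 times the lowest for miR-9a-3p and 5.11 times for miR-129-5p, against 1.96 and 1.25 times in RIPC-EXO. For miR-9a-5p these ratios were 2.11 and 1.99. The SD within groups, pooled on the log2 CPM scale, was 0.96 for miR-9a-3p, 0.87 for miR-128-3p, 0.84 for miR-129-5p, 0.58 for miR-138-5p and 0.52 for miR-9a-5p, and its median over the 404 tested miRNAs was 0.68. By this measure the members lay on both sides of the typical miRNA.

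The members did not share a profile over the 6 libraries. Likeness was measured as the root mean square difference of log2 CPM after each miRNA was centred on its own mean, a description over 6 libraries that share depth and source. Among members, miR-129-5p and miR-138-5p were the most alike (0.39) and miR-9a-3p and miR-129-5p the least (1.73), and the arms of miR-9a differed by 0.68. Among the 399 tested miRNAs outside the list, the nearest to miR-9a-5p were let-7e-5p (0.14) and miR-6329 (0.14), and the nearest to miR-9a-3p were miR-20a-5p (0.17) and miR-21-5p (0.19). The nearest to miR-129-5p were miR-298-5p (0.13) and miR-874-3p (0.19), and the nearest to miR-138-5p were miR-106b-3p (0.15) and miR-181d-5p (0.18). miR-128-3p had less close neighbours, miR-196c-3p (0.27) and miR-451-3p (0.33), which are rare at between 0.384 and 5.60 CPM. The median difference from all 399 was between 0.73 and 1.11 for the 5 members.

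Strands from opposite arms can be compared within a library, where scaling has no part. Both strands of miR-9a come from the same 3 hairpins, but miR-138-5p and miR-128-3p each come from 2 hairpins and miR-138-1-3p and miR-128-2-5p from 1, so those ratios can also move with the mix of loci. The ratio of miR-9a-5p to miR-9a-3p counts was 2.58, 5.44 and 1.36 in Control-EXO and 1.62, 1.44 and 1.64 in RIPC-EXO. Control-EXO replicate 3 was the lowest of all, and the groups overlapped. The mean log2 ratio was 1.41 ± 0.9975 in Control-EXO and 0.64 ± 0.10 in RIPC-EXO (SD, n = 3 each), a difference of -0.76 (exact two-sided permutation p = 0.4, adjusted p = 0.6 over the 3 ratios tested, where 0.1 is the smallest p that 3 libraries against 3 allow). Log2 ratios had 0.5 added to each count. This difference was -0.25 without Control-EXO replicate 2 and -1.25 without Control-EXO replicate 3. The ratio of miR-138-5p to miR-138-1-3p was 14.9, 14.03 and 5.22 in Control-EXO and 6.21, 3.94 and 6.17 in RIPC-EXO. Here Control-EXO replicate 3 lay within the RIPC-EXO range, and the difference of the mean log2 ratio was -0.94 (exact permutation p = 0.3, adjusted p = 0.6), or -1.43 without that library. miR-128-3p outnumbered miR-128-2-5p by 2621 to 10403 counts to 1, and the groups overlapped (exact permutation p = 0.7). The difference of its mean log2 ratio was 0.32, or 0.64 without Control-EXO replicate 3. For the miR-128 and miR-138 ratios the omission was chosen after seeing the data.

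**Figure D4:**
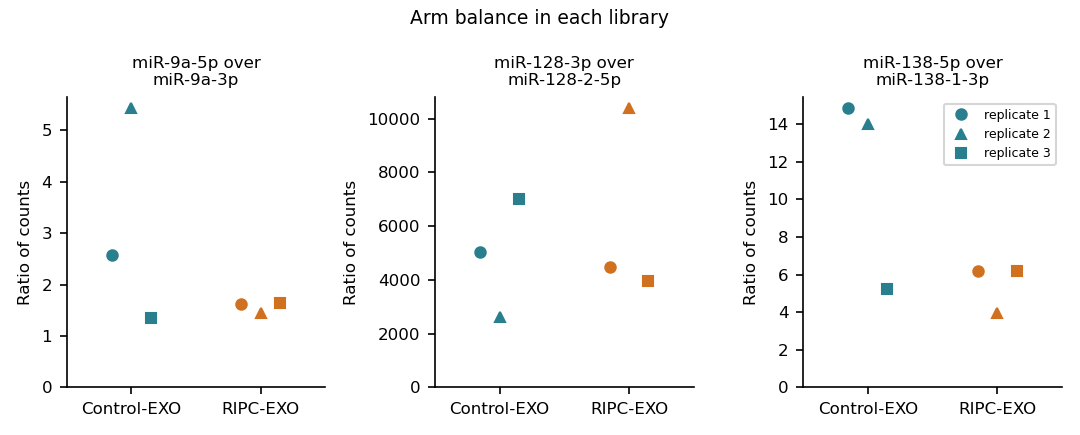
Ratio of the counts of the listed strands (vertical, linear from 0) in each Control-EXO and RIPC-EXO library, with a symbol for each replicate. In the panels of miR-9a and miR-138, Control-EXO replicates 1 and 2 lie above the RIPC-EXO libraries while replicate 3, at 1.36 and 5.22, does not.

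The other strands of these hairpins and miR-9b, which is read from the opposite DNA strand at the miR-9a loci, were scarce. Of 9 such names, 7 had any count and 3 were tested. miR-124-5p and miR-9b-5p had 0 counts in every library. miR-9b-3p, which is read from the strand opposite miR-9a-5p and differs from miR-9a-3p at 2 of the 18 bases they align over, had 0 to 9 counts per library, all multiples of 3, so the split of reads between the pair is uncertain. miR-128-1-5p had 2 to 12 counts, miR-129-1-3p 0 to 6 and miR-129-2-3p 0 to 3. miR-128-2-5p was at 7.62, 4.48 and 6.54 CPM in Control-EXO and 2.71, 2.73 and 4.22 CPM in RIPC-EXO, so that the groups did not overlap. Its log2 fold change was -0.94 (SE 0.55, adjusted p = 0.51 in edgeR's quasi-likelihood test). miR-138-1-3p was at 7.62, 4.48 and 7.11 CPM in Control-EXO and 10.3, 12.8 and 8.44 CPM in RIPC-EXO, again without overlap, with a log2 fold change of 0.72 (SE 0.49, adjusted p = 0.51 by that edgeR test). miR-138-2-3p had a log2 fold change of 0.54 (SE 0.78), or 1.54 (SE 0.88) without Control-EXO replicate 3. In that fit it was -0.88 for miR-128-2-5p and 0.82 for miR-138-1-3p. Of the 3 tested strands 2 thus had groups without overlap, where 12.9% of all tested miRNAs did, and 0 met the criterion, with or without Control-EXO replicate 3.

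A wider list of 30 nervous system miRNAs gave 28 names in the table, 27 with any count and 22 tested. The criterion of fold change and unadjusted p was met by 1 that was higher in RIPC-EXO (1.98% of all 404) and by 5 that were lower (7.43% of all 404), and 0 of the 22 had an adjusted p under 0.05 (edgeR's quasi-likelihood test). The median log2 fold change of the 22 was -0.96, with 17 below 0, against a median of -0.05 over all 404, of which 207 were below 0. The 6 miRNAs that met the criterion all had an adjusted p of 0.46 in this edgeR test. With library size as the only scaling, 1 was higher and 2 were lower, and the median was -0.74. In that setting 33 of all 404 met the criterion, 18 of them higher, and the median over all was 0.10.

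miR-132-3p, induced by CREB in active neurons, was the 1 that was higher, at 2.69, 1.41 and 4.98 CPM in Control-EXO and 10.8, 10.5 and 5.15 CPM in RIPC-EXO, a log2 fold change of 1.54 (SE 0.64). Its groups did not overlap, which held for 5 of the 22 tested miRNAs of the list and 12.9% of all 404. miR-433-3p, named after its values were seen, was 1 of these 5 and did not meet the criterion. miR-212-3p, from the cluster of miR-132-3p and named after its values were seen, had a log2 fold change of 1.29 (SE 0.65). It did not meet the criterion. The opposite strands of these hairpins went the other way, at -0.96 (SE 0.67) for miR-132-5p and -0.56 (SE 0.58) for miR-212-5p, and did not meet it either. Of the 5 that met the criterion and were lower, 1 was miR-219a-1-3p, from a hairpin of the oligodendrocyte miRNA miR-219a. It was at 169.7, 105 and 36.7 CPM in Control-EXO and 34.0, 31.4 and 42.3 CPM in RIPC-EXO. It had the smallest unadjusted p of the list, with a log2 fold change of -1.53 (SE 0.57), and Control-EXO replicate 3 lay within the RIPC-EXO range. miR-326-3p was at 934, 560.3 and 196 CPM in Control-EXO and 294, 166 and 179.6 CPM in RIPC-EXO, a log2 fold change of -1.40 (SE 0.59), and here too Control-EXO replicate 3 lay within the RIPC-EXO range.

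miR-149-5p, miR-485-5p and miR-541-5p were the other miRNAs of the list that met the criterion and were lower, and their groups did not overlap. miR-485-5p and miR-541-5p belong to the imprinted Dlk1-Dio3 cluster. Their log2 fold changes were -1.15, -1.54 and -1.13, with standard errors of 0.43, 0.59 and 0.47. miR-7a-5p, found in neurons and neuroendocrine cells, was the most abundant of the wider list, at 3133, 1442 and 1622 CPM in Control-EXO and 3961, 2432 and 3171 CPM in RIPC-EXO. Its log2 fold change was 0.63 (SE 0.47, adjusted p = 0.51 in edgeR's quasi-likelihood test). Without Control-EXO replicate 3, 1 miRNA of the wider list was higher and 7 were lower at an adjusted p under 0.05 (the same edgeR test, 22 tested), where 17.3% of all tested miRNAs were higher and 14.0% lower at that level. The criterion of fold change and unadjusted p was met in that fit by 2 that were higher (23.7% of all tested) and 10 that were lower (19.4% of all tested), with a median of -1.19. In the 5 fits that left out another library, fewer of the list met it. There were 0 of the 22 without RIPC-EXO replicate 1 (6.89% of all tested). There was 1, which was lower, without Control-EXO replicate 1 (3.52% of all tested, list median -0.37), without Control-EXO replicate 2 (4.29%) or without RIPC-EXO replicate 2 (3.81%). Without RIPC-EXO replicate 3 there were 1 higher and 2 lower (3.52% of all tested).

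**Figure D5:**
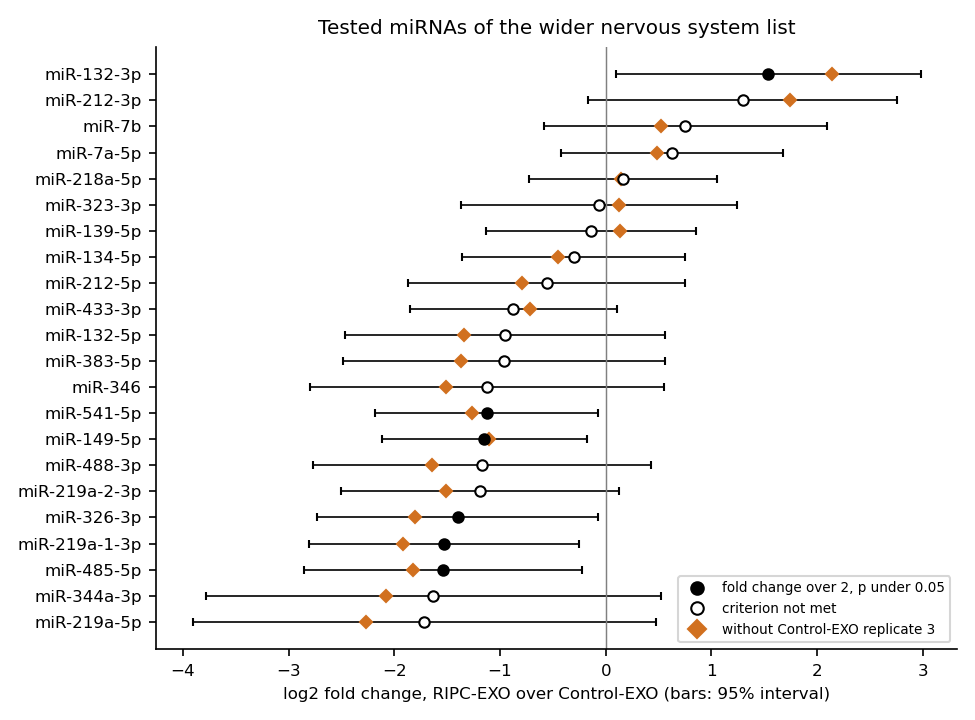
The log2 fold change of RIPC-EXO over Control-EXO (horizontal) with its 95% interval for the 22 tested miRNAs of the wider nervous system list, filled where the fold change exceeded 2 at an unadjusted p below 0.05. Of the 22 values 17 lie below 0, and the orange diamonds give the fit without Control-EXO replicate 3.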

How the data were processed

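Small RNA from plasma exosomes was sequenced on an Illumina HiSeq platform (3 Control-EXO and 3 RIPC-EXO libraries). The authors deposited 1 table of raw counts, with a column for each library and 763 mature miRNAs, neither normalized nor pooled. The submitters' processing notes name bcl2fastq, BWA and the build rn6, without roles or versions. How reads were counted, from which miRNA annotation, and what was done with multi-mapping reads is not given in the sources used here. Groups and replicate numbers were taken from the sample titles.

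The main analysis used edgeR 4.0.16 in R 4.3.3 (filterByExpr with minimum count 10 and minimum total count 15, TMM, glmQLFit and glmQLFTest with the group as the only term), and p-values were adjusted by Benjamini-Hochberg over the 404 tested miRNAs. Intervals (95%) used a standard error equal to the absolute log2 fold change over the square root of F. The common dispersion was 0.285. Levels are TMM-normalized CPM, with a prior count of 2 on the log2 scale. Single values were compared by exact permutation tests. DESeq2 1.42.0 and limma 3.58.1 were alternatives. By rule, named miRNAs were the 6 members, other strands of their hairpins, wider-list miRNAs that met the criterion, were the most abundant or had the smallest p in each direction, and the 2 nearest profiles per member. Other miRNAs were named after their values were seen. The members and lists were chosen with earlier results of these data known. Sequences and positions came from RefSeq (GRCr8), which held a mature sequence for 364 of the 404 tested miRNAs, and no coordinates of rn6 were used. The labels give no batch. The qRT-PCR, animal and cell experiments are not analysed here.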

Additional observations from a re-analysis of the deposited data

How the results depend on the processing

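In the 9 settings that kept all 6 libraries, the 5 tested members kept their direction and none had an adjusted p under 0.05 (edgeR, DESeq2 or limma). Leaving out each library in turn gave log2 fold changes of 0.12 to 0.75 for miR-9a-5p, -1.12 to -0.38 for miR-128-3p, 0.56 to 2.04 for miR-9a-3p, -1.48 to -0.54 for miR-129-5p and -0.65 to 0.063 for miR-138-5p, the last positive without Control-EXO replicate 1. The number of miRNAs meeting the criterion of fold change and p, 38 with all libraries, was between 15 and 182, and the number with an adjusted p under 0.05 (edgeR) between 0 and 132. The highest numbers came without Control-EXO replicate 3, where 100 of the 182 and 73 of the 132 were higher in RIPC-EXO. Without the filter on low counts 63 met the criterion, 27 of them higher, as against 8 of 38.

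With counts in their common step, an alternative chosen after seeing the data, the log2 differences between neighbours were 9.40 for miR-128-3p over miR-129-5p, -0.87 for miR-129-5p over miR-138-5p, 2.25 for miR-138-5p over miR-9a-5p, 0.98 for miR-9a-5p over miR-9a-3p and 4.12 for miR-9a-3p over miR-124-3p (each adjusted p = 0.031, exact permutation test). All 5 pairs then had the smallest p that the test allows. miR-128-3p, with 2 hairpins but odd counts, was not divided.

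In a paired fit with a replicate block, 38 miRNAs met the criterion, 25 of them higher in RIPC-EXO, and no member's call changed. The wider nervous system list then had 0 higher and 2 lower. Same-numbered libraries deviated from their group means with correlations of 0.33, -0.28 and 0.28, so the numbers were not taken to pair them. Depth limits miR-124-3p, whose counts were 0 or 3.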

Other observations

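Counts in steps were not particular to the brain-enriched miRNAs. Of the 369 miRNAs that had a count in every library and 1 hairpin in RefSeq (GRCr8), 30 had only multiples of 2 and 3 had only multiples of 3. Of the 18 with 2 hairpins, 4 had only multiples of 2, among them miR-129-5p and the abundant miR-181a-5p, and 1 only multiples of 3. Both miRNAs with 3 hairpins, the arms of miR-9a, had only multiples of 3. The miRNAs with 1 listed hairpin and multiples of 3 were miR-16-3p, miR-542-3p and miR-542-5p, and let-7i-5p and miR-351-5p were among those with multiples of 2 (names chosen after their values were seen). GRCr8 is not the build named in the processing notes, and the number of places on rn6 was not tested.

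Control-EXO replicate 3 held both the highest miR-128-3p level (45934 CPM) and the lowest miR-129-5p and miR-138-5p levels (35.6 and 37.1 CPM) of the 6 libraries.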
